A study of Populus tomentosa with 12 samples.

Results

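Iron deficiency was examined in roots of Populus tomentosa (Chinese white poplar) through the 6 libraries whose tissue label is Root, of 12 libraries in the series. Members were chosen by their labels alone. The 3 Fe-deficient root libraries came from plantlets moved to woody plant medium solution holding 0 µM Fe, and the 3 Fe-sufficient ones from plantlets given 100 µM Fe in the same solution. Both groups had been micropropagated on agar-solidified medium with sucrose and NAA, a synthetic auxin, and are labelled seedling stage, with no mutation or transgene named. The remaining 6 libraries are from shoots under both Fe supplies. The sources used here do not give how long Fe was withheld or which plants entered each library. The p-values below therefore compare libraries, and whether these stand for separate plants is not known.

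As background, roots of plants other than grasses take up iron by acidifying the soil around them, reducing ferric to ferrous iron with a ferric-chelate reductase at the plasma membrane, and importing it with a ZIP-family transporter. In Arabidopsis, bHLH transcription factors raise these genes when iron is short, together with enzymes that make coumarins, which are secreted to mobilise iron, and nicotianamine, which carries iron within the plant. Iron storage proteins of the ferritin family are lowered at the same time. None of these genes could be located here. The files give 42950 gene IDs without names, and 0 of them matched the 60139 entries of the P. tomentosa gene table (assembly PTv2). The IDs named below begin with Potri, a form this table does not hold. The missing match therefore does not bear on which genes are present, and no function could be read from the IDs. The response is therefore described by its size, its breadth, the abundance of the genes in it and their behaviour in each library. Only 4 IDs are named, with no function attached, by a rule chosen with earlier results of these data known. They are the 2 that rose and the 2 that fell with the smallest p. Only called genes with a mean of at least 10 CPM and no overlap between the groups were eligible. CPM is reads of a gene per 1e+06 reads counted in genes, after TMM scaling unless stated otherwise, and is not corrected for gene length.

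Root libraries held 8663523 to 10886552 gene counts and detected 28923 to 29512 genes. Libraries were compared on 7 measures: depth, genes detected, concentration of reads in the most abundant genes, and reads without a gene, ambiguous or unaligned. The Fe supplies overlapped in every one, with two-sided exact permutation p-values of 0.4 to 1 (the smallest that 3 against 3 libraries allow is 0.1). Other reads given to no gene were not compared between Fe supplies. In each library, the top 100 genes by count took 10.1% ± 0.669 of gene counts without Fe and 10.3% ± 0.312 with Fe (SD, n = 3 each).

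The strongest axis of variation among the root libraries separated them by Fe supply. On the first principal component of log2 CPM, which carried 36.4% of the variance, Fe-sufficient libraries lay at -33.73, -29.09 and -42.76 and Fe-deficient libraries at 35.67, 55.84 and 14.07. The groups did not overlap on it. The second component, with 23.2% of the variance, spread the replicates within both groups, from -39.20 to 47.85 with Fe and from -35.03 to 14.76 without Fe. Fe-deficient replicate 3 lay nearest to the other group on the first component and lowest of its own group on the second. Spearman correlations between libraries were 0.960 to 0.975 within the Fe-sufficient group, 0.964 to 0.974 within the Fe-deficient group and 0.945 to 0.965 between groups. These are descriptions across genes within the same 6 libraries.

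**Figure D1:**
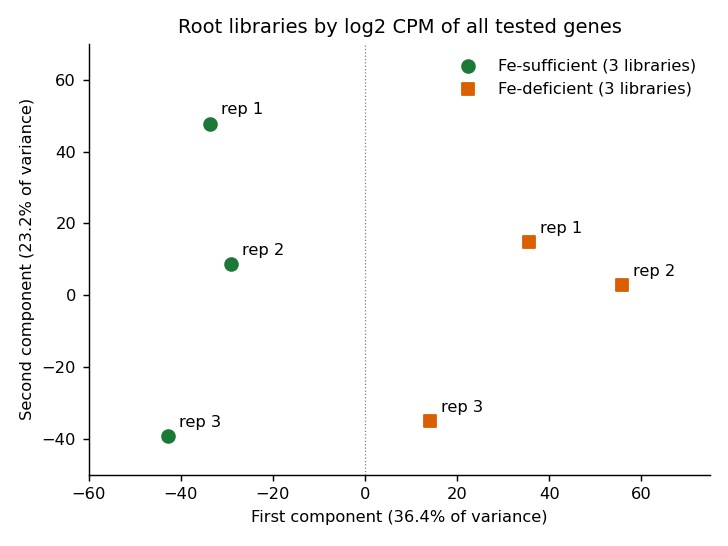
Scores of the 6 root libraries on the first and second principal components of log2 CPM over all tested genes (1 point per library, numbered by replicate). The first component, 36.4% of the variance, has all Fe-sufficient libraries below 0 and all Fe-deficient libraries above it.

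Single genes were then compared between Fe supplies within roots. Of 23785 genes tested, 46 (0.193%) rose and 88 (0.37%) fell without Fe, 0.563% in all (edgeR's quasi-likelihood test, Benjamini-Hochberg adjusted p under 0.05). Genes that rose went from a median of 7.74 CPM with Fe to 32.9 CPM without it, and genes that fell went from 57.5 to 16.8 CPM, while the medians over all tested genes were 16.7 and 16.9 CPM. The interquartile range of the log2 fold changes was 1.22 to 2.75 for the rises and -1.98 to -1.11 for the falls. The smallest changes called were 0.83 and -0.69, and the largest were 9.08 and -5.67. Of the genes that rose, 3 had at most 3 counts in the Fe-sufficient libraries together. Of those that fell, 1 had at most 3 counts in the Fe-deficient ones. On so few counts the size of a change is uncertain. Of the calls, 7 rises and 14 falls were under 2-fold.

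The genes called by edgeR at this threshold were a small part of the counted root RNA. The 46 genes that rose took 0.0708%, 0.0705% and 0.0730% of gene counts in Fe-sufficient replicates 1 to 3, and 0.199%, 0.211% and 0.210% in the Fe-deficient ones. The 88 genes that fell took 1.08%, 1.09% and 1.16% with Fe, and 0.488%, 0.470% and 0.487% without it. Every Fe-deficient library was on the same side of every Fe-sufficient one for both groups of genes, which their choice on this contrast favours. In these shares, the falling genes lost more counts than the rising genes gained.

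**Figure D2:**
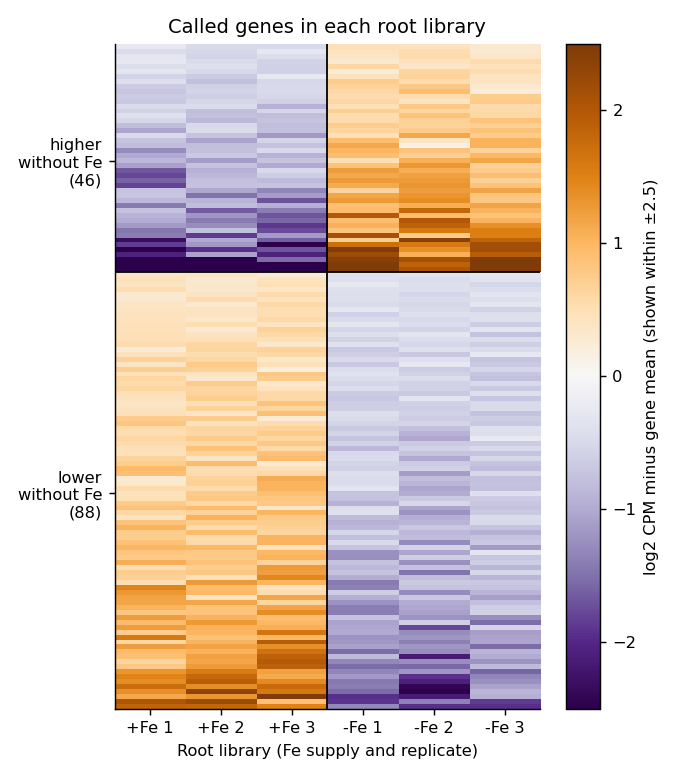
Level of each called gene in each root library, as log2 CPM minus the gene's mean over the 6 libraries (colours end at ±2.5). Rows are the 46 genes higher without Fe (above the line) and the 88 lower without Fe, ordered by fold change; columns are the replicates of each Fe supply, +Fe sufficient and -Fe deficient.

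Among named genes that rose, Potri.012G055100 stood at 8.82, 8.13 and 5.22 CPM in Fe-sufficient replicates 1 to 3 and at 41.7, 72.2 and 51.3 CPM in Fe-deficient replicates 1 to 3. All Fe-deficient libraries were above all Fe-sufficient ones, and replicate 2 was the highest. This was a 7.44-fold rise, from 7.39 ± 1.91 to 55.0 ± 15.6 CPM (SD, n = 3 each), or 2.89 ± 0.275 (SE) on the log2 scale (adjusted p by edgeR 0.0210). Its level in shoots, scaled among shoot libraries, was 111 ± 24.2 CPM with Fe and 260 ± 26.6 CPM without it (SD, n = 3 each).

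The other risen gene, Potri.004G230000, stood at 20.6, 17.7 and 21.3 CPM with Fe and at 50.7, 47.6 and 46.0 CPM without it. Its replicates lay close together in both groups, with means of 19.9 ± 1.92 and 48.1 ± 2.38 CPM (SD, n = 3 each), 2.42-fold apart. The log2 fold change was 1.28 ± 0.130 (SE; adjusted p by edgeR 0.0210). In shoots it was scarce, at 0.915, 5.05 and 3.51 CPM with Fe and 3.85, 2.44 and 2.64 CPM without it, and the supplies overlapped.

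Of all tested genes, Potri.008G101400 had the smallest p. It stood at 28.9, 27.8 and 31.3 CPM with Fe and at 5.63, 5.23 and 4.08 CPM without it, on 272, 274 and 306 counts against 48, 46 and 46. The mean fell from 29.4 ± 1.79 to 4.98 ± 0.807 CPM (SD, n = 3 each), 5.91-fold, which on the log2 scale is -2.56 ± 0.178 (SE; adjusted p by edgeR 0.0124). In shoots it was near 1 CPM under both supplies (1.24 ± 0.0599 with Fe and 1.03 ± 0.850 CPM without it; SD, n = 3 each).

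Potri.016G124900 stood at 21.5, 25.6 and 19.9 CPM with Fe and at 3.29, 3.64 and 2.66 CPM without it. The highest Fe-deficient library was far below the lowest Fe-sufficient one. Means were 22.3 ± 2.97 CPM with Fe and 3.19 ± 0.495 CPM without it (SD, n = 3 each). On the log2 scale the change was -2.81 ± 0.206 (SE), with an adjusted p by edgeR of 0.0124. The level of this gene in shoots was 4.07 ± 2.03 CPM with Fe and 0.565 ± 0.182 CPM without it (SD, n = 3 each). In the order of the files, it is listed within 5 places of another called gene.

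**Figure D3:**
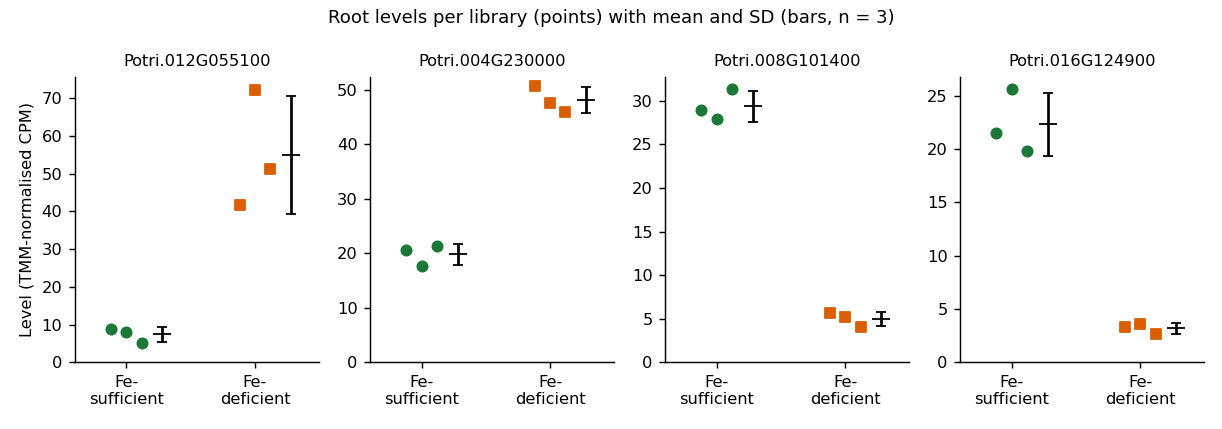
Root levels of the 4 named genes in TMM-normalised CPM (vertical axes, each from 0), 1 point per library, with the mean and SD of 3 libraries beside them. Potri.012G055100 and Potri.004G230000 are higher and Potri.008G101400 and Potri.016G124900 lower in every Fe-deficient library.

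The fold changes of these 4 genes, whose lowest count in any library was 28, were followed with libraries left out. With each root library omitted in turn, log2 fold changes ranged from 2.65 to 3.06 for Potri.012G055100, 1.20 to 1.33 for Potri.004G230000, -2.66 to -2.43 for Potri.008G101400 and -2.91 to -2.69 for Potri.016G124900. Their calls were kept in 4, 2, 5 and 4 of the 6 omissions, in that order, by edgeR. None was kept without Fe-sufficient replicate 2, where the adjusted p by edgeR was 0.0795 for the falling genes and 0.122 for the rising ones. Without Fe-deficient replicate 1 it was 0.0593 for Potri.012G055100 and Potri.016G124900 and 0.0911 for Potri.004G230000. Potri.004G230000 also missed the threshold without Fe-sufficient replicate 1 (adjusted p by edgeR 0.0516) or Fe-deficient replicate 2 (0.0654). DESeq2 and limma voom called all 4 with all libraries.

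Rising and falling genes were then counted by abundance. Of the 8554 tested genes with a mean of 1 to 10 CPM, 0.187% rose and 0.152% fell. Of the 12822 at 10 to 100 CPM, 0.218% rose and 0.437% fell. Of the 2208 at 100 to 1000 CPM, 2 genes (0.0906%) rose and 19 (0.861%) fell. Genes that rose had means of 1.44 to 119 CPM, and genes that fell 1.24 to 880 CPM. No gene was called by edgeR among the 31 at 1000 CPM and over. With 0.563% of all tested genes called, 0 among so few is not read as a result. Of the 31, 6 (19.4%) had an unadjusted p under 0.05, against 15.2% of all tested genes. DESeq2 called 5 of them, against 1109 of all 23785, and limma voom 0, against 78. Among the 170 tested genes under 1 CPM edgeR also called 0, again too few genes to read. There, 22 (12.9%) had an unadjusted p under 0.05, DESeq2 called 5 and limma voom called 0.

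Directions were also counted over all tested genes, called or not. A log2 fold change above 0 was found in 54.3% of genes at 1 to 10 CPM, 50.7% at 10 to 100 CPM and 43.7% at 100 to 1000 CPM, with medians of 0.05, 0.005 and -0.03. These medians are small beside the spread of log2 fold changes across genes, which had an SD of 0.599, 0.419 and 0.367 in the 3 classes. In the same classes the median SE of a log2 fold change was 0.342, 0.174 and 0.145. Among the 100 most abundant genes 2 were called, against 0.563% of all tested genes, and 22 had an unadjusted p under 0.05, against 15.2%, with log2 fold changes of -1.40 to 1.60.

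**Figure D4:**
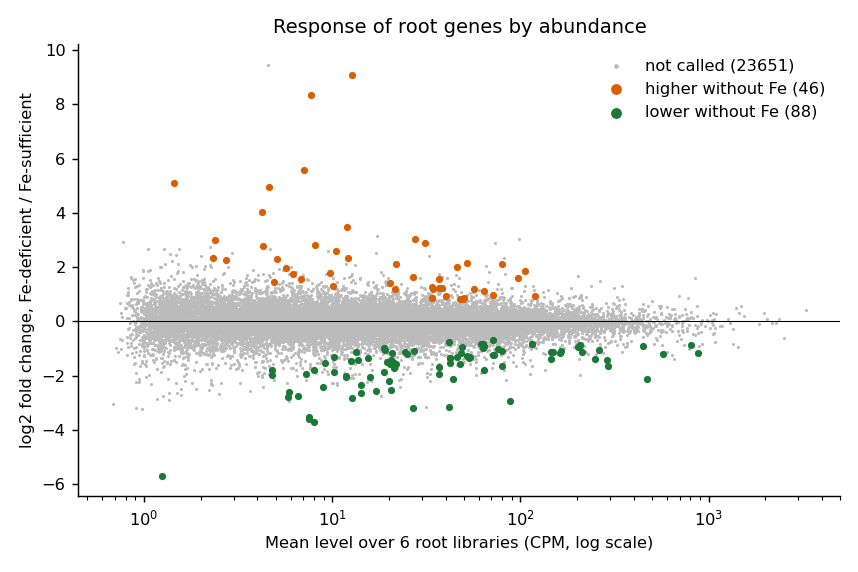
log2 fold change (Fe-deficient over Fe-sufficient roots, vertical axis) against mean level over the 6 root libraries in CPM (log axis), 1 point per tested gene. Genes called lower reach 880 CPM, while genes called higher end at 119 CPM.

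Genes short of the threshold were counted next. An unadjusted p under 0.05 was found for 3622 genes (15.2% of those tested), of which 1656 were higher and 1966 lower without Fe. The groups did not overlap in 5089 genes (21.4%), of which 2427 were higher and 2662 lower. For a gene with no difference, 0.1 of the arrangements of 3 against 3 libraries would not overlap. At an adjusted p under 0.10 edgeR listed 585 genes, 237 higher and 348 lower, so 451 lay just above the threshold. Of 1147 tested genes with a fitted change of at least 2-fold, 113 (9.85%) passed the threshold and 848 did not overlap between the groups. Over all tested genes the interquartile range of the log2 fold changes was -0.22 to 0.23 and the median 0.01.

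Co-changing genes were looked for within the groups, using each library's deviation from its group mean on the log2 CPM scale. The mean correlation between pairs of genes was -0.018 among the 46 that rose, 0.031 among the 88 that fell and 0.0002 over all tested genes. Each correlation rests on 6 libraries that share depth and scaling, and is a description. Fe-deficient replicate 2 was the highest of its group in 21 of the 46 genes that rose (45.7%; 31.6% of all tested genes) and the lowest in 42 of the 88 that fell (47.7%; 32.8% of all tested genes). Fe-sufficient replicate 3 was the highest of its group in 44 of the 88 genes that fell (50%; 36.1% of all tested genes). Within groups, the median SD of log2 CPM without Fe was 0.249 for genes that rose, 0.204 for genes that fell and 0.244 over all tested genes. With Fe it was 0.292, 0.207 and 0.222. The called genes passed a test that favours small spread within groups, so these SDs are a description.

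Neighbours among the called genes were counted in the file order. Of the 134 called genes, 15 were within 5 listed places of another, forming 9 pairs, of which 7 had the same direction (5 pairs fell and 2 rose). No background was computed for this count, and whether such pairs are near-identical copies that share reads could not be examined without sequences.

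The called genes were also read in shoots, which did not enter the root test. In this paragraph and the next, CPM is without TMM. Of the 88 genes that fell, 81 (92.0%) had a lower mean in shoots than in roots, against 68.9% of all tested genes, and their median shoot level was 8.31 CPM. At least 10 times more in roots than in shoots (plus 0.5 CPM) was found for 21 of the 88, against 1068 of all 23785. Of the 46 that rose, 19 (41.3%) were lower in shoots, and their median shoot level was 36.4 CPM, against 12.7 CPM over all tested genes. Here 11 of the 46 were at least 10 times more abundant in shoots than in roots (plus 0.5 CPM), against 531 of all 23785. Levels are set across tissues whose reads were assigned unequally, and were not tested.

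Because rising genes were often abundant in shoots, genes abundant in shoots and scarce in roots were read in the root libraries. A class of 534 genes had a shoot mean of at least 10 CPM and 20 times the root mean plus 0.5 CPM. Of shoot counts it took 22.4%, 20.5% and 18.3% in Fe-sufficient replicates 1 to 3. In the Fe-deficient shoots it took less, at 15.3%, 14.8% and 15.2%. In roots it took 0.400%, 0.343% and 0.332% of counts in Fe-sufficient replicates 1 to 3 and 0.437%, 0.465% and 0.491% in the Fe-deficient ones. The groups did not overlap, with means of 0.358% ± 0.0366 and 0.464% ± 0.0268 (SD, n = 3 each). By a two-sided exact permutation test p was 0.1, the smallest possible, and 0.2 adjusted over 2 classes. Without called genes the means were 0.353% and 0.449%. Of the 220 members that passed the filter on low counts, 4 rose and 0 fell by edgeR, where 0.193% and 0.37% of all tested genes did. At an unadjusted p under 0.05, 61 of the 220 were higher and 8 lower without Fe. Of all 23785 tested genes, 1656 were higher and 1966 lower at that threshold. Their median log2 fold change was 0.33, against 0.01 over all tested genes, and 74.1% were above 0, against 51.3%. Members are scarce in roots, so some could pass the filter through the libraries of a single Fe supply. The counts over these members are therefore a description. The remaining 42 risen genes lay outside this class, and the part of shoot-abundant transcripts in the rises was not tested. A class of 424 root-specific genes, defined the other way round, took 4.58%, 4.63% and 4.71% of counts in Fe-sufficient replicates 1 to 3 and 4.98%, 4.91% and 3.93% in the Fe-deficient ones (two-sided exact permutation p 1). Fe-deficient replicate 3 was the lowest of the 6 libraries, and the other two were above every Fe-sufficient one. Of the 424, 8 fell and 1 rose by edgeR, against 0.37% and 0.193% of all tested genes. At an unadjusted p under 0.05, 75 of the 424 were lower and 27 higher, against 1966 and 1656 of all 23785.

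The root response was then set against that of shoots in 1 edgeR fit of all 12 libraries. The response differed between tissues in 21 of the 46 genes that rose in roots (45.7%) and 28 of the 88 that fell (31.8%), against 1.25% of all 25046 genes in that fit. The calls were chosen on the root contrast, which is part of this difference, so nothing is read from the higher share. Their fitted shoot responses were centred near 0, with medians of 0.08 for genes that rose and -0.01 for genes that fell in roots, and had the root direction in 27 of 46 and 45 of 88.

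The named genes differed in this respect. Potri.012G055100 also rose in shoots (log2 fold change 1.24 ± 0.228, SE; adjusted p by edgeR 0.0202), by less than in roots (difference 1.67 ± 0.332, SE; adjusted p by edgeR 0.0297). Potri.016G124900 also fell in shoots (-2.81 ± 0.438, SE, with an adjusted p by edgeR of 0.00688). Its fitted difference between tissues was 0.02 and missed the threshold. No SE is given for it, because the formula used is unreliable for so small a change. For Potri.008G101400 and Potri.004G230000 the shoot log2 fold changes were -0.26 ± 0.481 and -0.07 ± 0.404 (SE), and the differences of -2.29 ± 0.569 and 1.36 ± 0.495 (SE) missed the threshold (adjusted p by edgeR 0.0753 and 0.251).

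The number of root calls depended on single libraries. Without Fe-sufficient replicate 1, 4 genes rose and 15 fell, and without replicate 3, 26 and 45. Without Fe-sufficient replicate 2 none was called by edgeR, although 2912 genes had an unadjusted p under 0.05. Without Fe-deficient replicates 1, 2 and 3 the numbers were 1 and 2, 12 and 8, and 10 and 20. Of the 134 calls, 24 rises and 48 falls were kept in 0 of the 6 omissions, 14 and 20 in 1 of them, and none in all 6. An omission also lowers the number of libraries, and the share of each in the lost calls was not tested. DESeq2 called 1109 genes, all 134 among them, and limma voom called 78, of which 77 were among the 134.

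**Figure D5:**
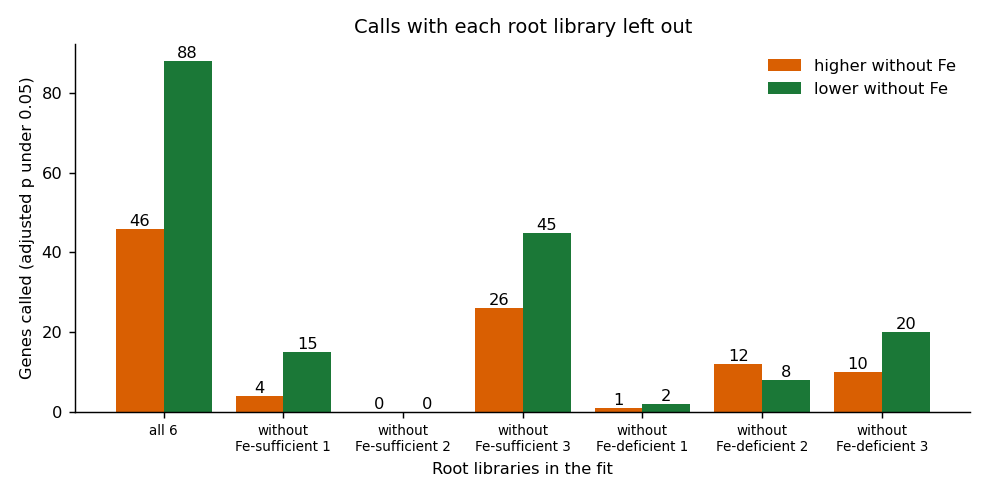
Number of genes called by edgeR (adjusted p under 0.05) with all 6 root libraries and with each left out, by direction. The counts go from 46 higher and 88 lower with all libraries to 0 of either without Fe-sufficient replicate 2.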

How the data were processed

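RNA of roots and shoots was sequenced in 12 libraries, and each deposited file lists unnormalised read counts for 1 library. Tools named in the submitters' processing notes are HISAT2 2.0.5, Trimmomatic 0.36, edgeR 3.16.5 and HTSeq 2.2.1. The sources used here give neither their settings nor the build, annotation or strandedness behind the counts. Whether the gene models counted were those of P. tomentosa is therefore not known here. The 5 rows of reads given to no gene held 58.3% to 64.0% of reads listed per root library and stayed out of library sizes and tests.

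Roots were tested on their own 6 libraries with edgeR 4.0.16 (R 4.3.3; TMM, filterByExpr with a minimum count of 10, robust quasi-likelihood F test), adjusted over all tested genes by Benjamini-Hochberg. Standard errors are the absolute log2 fold change over the square root of F, which is unreliable where the change is very small. Principal components used log2 CPM with a prior count of 2. The difference between tissues was a contrast of 4 groups in a fit of all 12 libraries. Single measures were compared by two-sided exact permutation. Code was tested on simulated data. Alternatives were DESeq2 1.42.0, limma 3.58.1 (voom), RLE scaling, other filters and thresholds, the joint fit and leaving out each library. Root replicates were numbered in accession order. The comparison, the tissue classes and the rule for named genes were chosen with earlier results of these data known; gene lists by function were not used, since no ID could be paired with a name.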

Additional observations from a re-analysis of the deposited data

Results flagged for a closer look

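The responses of roots and shoots differed in 49 of the 134 genes called in roots (edgeR contrast of 4 groups, adjusted p under 0.05 over all genes in the fit), against 313 (1.25%) of all 25046 genes. The 134 were chosen on the root contrast, which is part of this difference, so the higher share is not read as a result. Among the named genes this held for Potri.012G055100, whose log2 response was 1.67 higher in roots than in shoots, with a rise in both tissues. Groups of 3 libraries are too small for a search for single outlying libraries.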

How the results depend on the processing

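RLE scaling and the filter on 1 CPM kept the numbers of rises and falls within 1.5 times of 46 and 88, as did a minimum of 2-fold (39 and 74). DESeq2 gave 437 rises and 672 falls, no filter on low counts 136 and 221, and 1 fit of all 12 libraries 254 of each, a share of 50% falls against 65.7%. With limma voom the numbers were 22 and 56, and at an adjusted p under 0.01 edgeR called 0 and 0 (3622 genes at an unadjusted p under 0.05; the smallest adjusted p was 0.0124). Leaving out 1 library gave 0 to 26 rises and 0 to 45 falls. The named genes kept their direction under every alternative run. Of the root calls, 49 differed between tissues by edgeR and 82 by DESeq2, and 30 to 46 when 1 of the 12 libraries was left out (31 without root Fe-sufficient replicate 2, 32 without shoot Fe-sufficient replicate 1 and 30 without shoot Fe-deficient replicate 1); these runs were chosen after seeing the data. The cause of these differences in number was not tested. No paired analysis was possible because the labels give root libraries no replicate numbers shared between Fe supplies. The median SE was 0.342 for genes at 1 to 10 CPM and 0.145 at 100 to 1000 CPM, so a change of a given size was harder to detect in scarce genes; depth and replicate spread both enter this SE and were not separated.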
